A study of Homo sapiens with 6 samples.

Results

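Chaperones keep other proteins folded, and the genes described here are the heat shock protein families, their DNAJ partners and the regulators that go with them. The members were the protein-coding rows whose names start with HSPA, HSPB, HSPD, HSPE or HSPH and a digit, with HSP90 or with DNAJ, together with CLU, HSF1, HSF2 and BAG3. They came to 80 of 58735 annotated genes, and 67 of the 80 had enough counts to enter the 15726 genes tested. The RNA came from NCI-N87, an established human gastric cancer cell line. The cells had received the vector PLVX-IRES-Puro carrying EGLN3 (3 libraries, the EGLN3 group) or empty (3 libraries, the control group). EGLN3 is a prolyl hydroxylase that acts on hypoxia-inducible factors. All 6 libraries had 7 days of puromycin selection and are labelled day 7; time with the plasmid is given as 1 day for 5 libraries and as 5 days for EGLN3 replicate 3. Both groups thus carry the vector and the selection, and the added EGLN3 comes from a transgene. The labels do not say whether replicates were separate cultures, so p-values cover no more than the variation among these 6 libraries, and that variation may be technical.

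HSP70 proteins bind exposed stretches of unfolded clients and release them in a cycle driven by ATP. DNAJ proteins deliver the clients and start ATP hydrolysis through their J domain, HSP110 proteins and BAG3 exchange the nucleotide, HSP90 acts on clients that are nearly folded, and HSPD1 with HSPE1 forms the folding chamber of mitochondria. Small heat shock proteins hold unfolded clients without using ATP, and CLU (clusterin) does so mostly outside the cell. Under heat or proteotoxic stress HSF1 switches many of these genes on through heat shock elements, while the copies of the endoplasmic reticulum (ER) are driven by the unfolded protein response.

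Promoter sequences were read for the members because 2 control elements are well known from these families. RefSeq windows on GRCh38.p14, from 250 bases before to 50 bases after a gene's start, were searched for 68 member gene names (88 windows, since some genes have several starts). The other 11 member names, CLU and HSF1 among them, were not searched. A heat shock element of 3 units was searched as GAA, TTC and GAA with any 2 bases between units, or as its reverse complement, and overlapping matches were allowed. It was present in 7.95% of the member windows, against 0.49% of all 35116 windows in the table. The 7 genes with a match were HSPA8, HSPA6, HSP90AA1, HSP90AB1, HSPD1, DNAJA1 and DNAJB6, all with products of the cytosol or nucleus except HSPD1. The ER stress element, CCAAT and CCACG with any 9 bases between them on either strand, was present in 2 member genes, HSPA5 and HSP90B1, the HSP70 and HSP90 of the ER, and in 0.0769% of all windows. The stretches that carry the match nearest to and upstream of the start are given for 6 genes that are highly expressed here, 5′ to 3′ on the gene's strand, with the element in capitals.
HSPA8, chr11:123062167-123062203, minus strand: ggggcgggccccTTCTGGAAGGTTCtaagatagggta
HSP90AB1, chr6:44247819-44247855, plus strand: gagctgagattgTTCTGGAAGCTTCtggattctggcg
HSP90AA1, chr14:102087108-102087144, minus strand: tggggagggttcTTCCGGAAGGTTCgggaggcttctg
HSPD1, chr2:197500056-197500090, minus strand: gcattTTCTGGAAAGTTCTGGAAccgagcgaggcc
HSPA5, chr9:125241379-125241421, minus strand: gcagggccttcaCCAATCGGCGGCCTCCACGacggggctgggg
HSP90B1, chr12:103930309-103930351, plus strand: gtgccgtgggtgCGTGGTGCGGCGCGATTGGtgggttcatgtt
HSPB8 held no element of 3 units. Its 200 bases before the start are shown because the results turn on this gene, with a match to 2 such units in capitals. That shorter motif has 8 bases, GAA and TTC in either order around any 2 bases, and is part of the element of 3 units. It was searched after the gene's values were seen. It stands in 26.1% of the member windows and in 13.5% of all windows. HSPB8 also has a match just after the start, outside the bases shown.
HSPB8, chr12:119178731-119178930, plus strand: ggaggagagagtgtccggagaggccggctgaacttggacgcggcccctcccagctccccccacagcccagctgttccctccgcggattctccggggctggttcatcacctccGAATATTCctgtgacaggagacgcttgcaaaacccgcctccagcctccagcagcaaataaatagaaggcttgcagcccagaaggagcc
A match describes these letters only, and binding was not measured.

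The libraries held 15157265 to 16767383 counts. EGLN3 itself had 10, 11 and 9 counts in controls and 7298, 27674 and 27494 with its plasmid. Markers fixed for epithelium in general (EPCAM, CDH1, KRT8, KRT18, KRT19, KRT7 and ERBB2) summed to between 34436 and 54948 CPM (counts scaled to library size by TMM) in every library. The 4 fibroblast, 4 immune and 3 endothelial markers each summed to at most 5.52 CPM. Variance lay mainly on a first principal component (70%), which did not separate the groups. It placed EGLN3 replicate 3 at -45.9, control replicate 1 at -36.2 and EGLN3 replicate 2 at -23.3, and control replicate 2 at 11.5, control replicate 3 at 34.4 and EGLN3 replicate 1 at 59.4. What sets this order was not tested.

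HSP90AB1 and HSPA8, both constitutive chaperones, had the highest levels. Together the 80 members took 1.27% to 1.38% of all counts, and HSP90 and HSP70 genes supplied most of it, at 0.41% to 0.47% and 0.35% to 0.392%. On the deposited FPKM scale, which divides counts by gene length, HSP90AB1, the constitutive cytosolic HSP90, was the highest member at 968 ± 47.4 in controls (SD, n = 3) and 923 ± 38.1 with EGLN3. HSPA8, the constitutive cytosolic HSP70, followed at 465 ± 37.4 and 462 ± 19.1 FPKM. HSPB1 (HSP27) came next at 414 ± 116 and 406 ± 249 FPKM, and its spread means that its order against HSPA8 differs between libraries. HSPA5 (BiP) and HSPD1 were both at 193 FPKM in controls, with SDs of 11.4 and 10.9, the inducible HSP90AA1 at 179 ± 10.9 and HSP90B1 (GRP94) at 135 ± 11.3. The order of these 4 depends on the length used. The deposited gene length exceeded the longest annotated transcript for 57 of the 67 tested members. The median ratio over all 67 was 1.27, and a longer length gives a lower FPKM. Rescaled to the longest transcript, a check added after the data were seen, HSPD1 stood at 334 ± 18.8 in controls, HSP90AA1 at 267 ± 16.3, HSP90B1 at 209 ± 17.6 and HSPA5 at 193 ± 11.4. HSP90AB1 (1079 ± 52.9), HSPA8 (915 ± 73.6) and HSPB1 (465 ± 130) remained the 3 highest on that scale.

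Stress-inducible HSP70 genes were expressed well below the constitutive one. HSPA1A had 35.2 ± 6.37 FPKM in controls and HSPA1B 17.8 ± 0.581, but their coding sequences are nearly identical and the division of reads between them is uncertain. HSPA6, which is usually seen only under strong stress, had 0.81 ± 0.235 FPKM. HSPA9, the mitochondrial HSP70, was at 52 ± 1.93 FPKM. HSPA2 was at 7.52 ± 0.464 FPKM, and HSPA12B and HSPA1L averaged 0.264 and 0.284 FPKM in controls. In the deposited annotation there are 2 genes with the name HSPA14 on overlapping spans of chromosome 10, so their reads are uncertain too.

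Among the DNAJ partners, DNAJA1 (103 ± 10.5 FPKM in controls) and DNAJB1 (88.7 ± 5.34), the main cytosolic partners of HSP70, were the highest of their classes. DNAJC8, a splicing-related member, led the DNAJC class at 37.2 ± 5.84 FPKM, followed by DNAJC5, the cysteine string protein of secretory vesicles, at 33.6 ± 1.66. By deposited length these 2 do not differ beyond their spread, while by longest transcript DNAJC8 was at 61 ± 9.58 and DNAJC5 at 33.6 ± 1.66. DNAJC1, an ER membrane protein, had 24.2 ± 3.8 FPKM. The length ratio was highest for DNAJC7, a co-chaperone that binds both HSP70 and HSP90, at 3.66 (9373 bases against 2564), which had 4.71 ± 0.409 FPKM by deposited length and 17.2 ± 1.49 by longest transcript. The 3 regulators were HSF1 at 36.8 ± 5.36 FPKM, BAG3 at 31 ± 1.75 and HSF2 at 5.28 ± 0.0789. HSPB8 had 4.2 ± 0.379 FPKM in controls and CLU 3.98 ± 0.764, but by longest transcript HSPB8 was at 5.59 ± 0.504 and CLU at 8.55 ± 1.64. Both lay far under HSPB1 by either length.

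**Figure D1:**
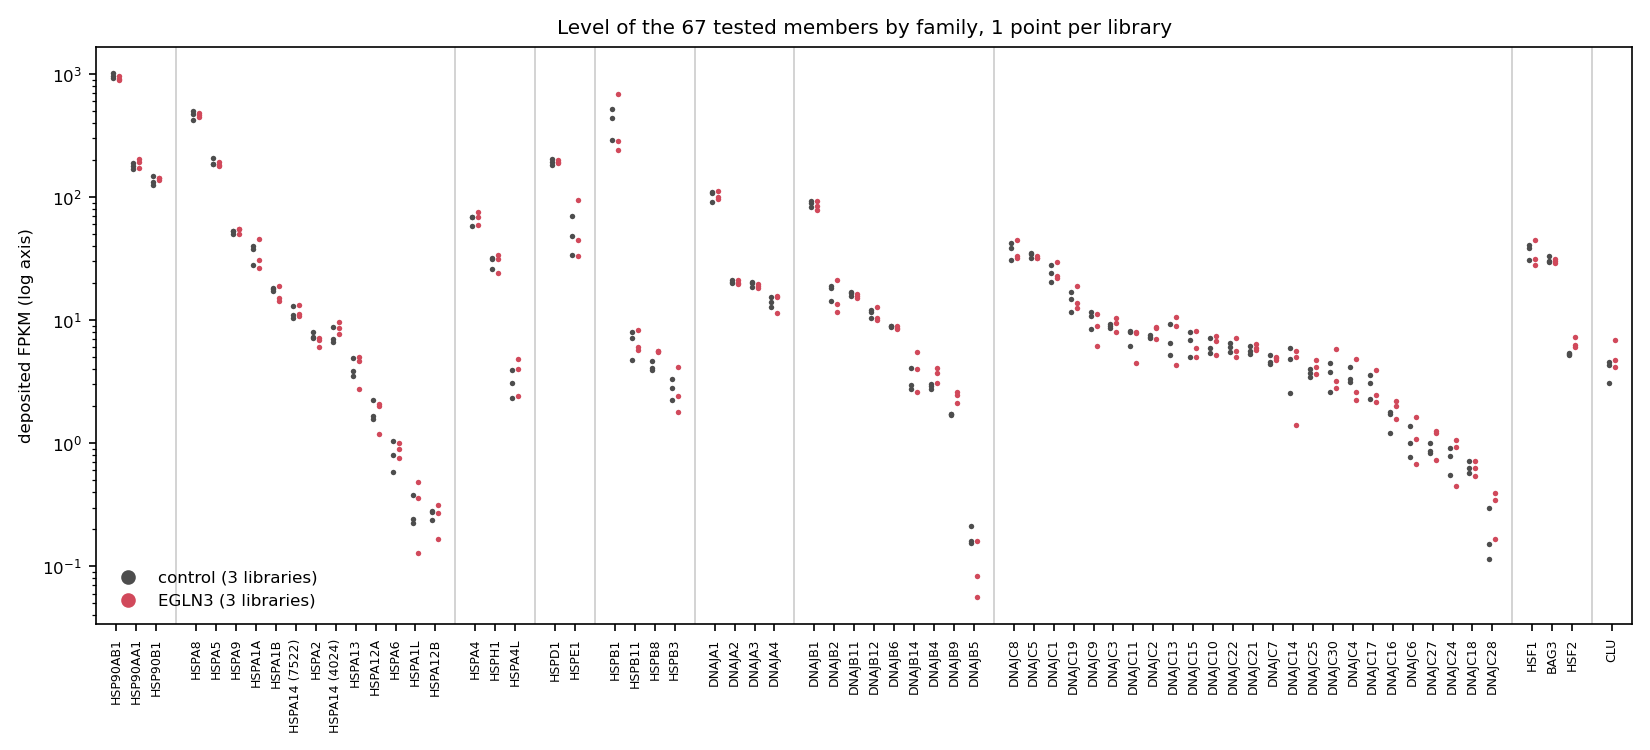
Deposited FPKM (log axis) of the 67 tested members in each of 3 control and 3 EGLN3 libraries, ordered by control level within families. HSP90AB1, HSPA8 and HSPB1 are highest, and the points of the groups overlap for most genes.

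The remaining 13 members were too low to test. DNAJB8, DNAJC5B, DNAJC25-GNG10 and HSPB2-C11orf52 had 0 counts in all 6 libraries, which allows up to 3 counts in a library. HSPB2, HSPB6, HSPB7 and HSPB9, small heat shock proteins of muscle, heart or testis, had at most 8 counts in any library, and HSPE1-MOB4, DNAJC5G, DNAJC12, DNAJB7 and DNAJB13 at most 15. So 4 of 9 genes named HSPB were tested, and HSPB11 among them is the intraflagellar transport protein IFT25.

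HSPB8 and CLU were higher with EGLN3 in both of the 2 fits made, by 32% and 32.1% in the first and 37% and 35.6% in the second. They passed an adjusted p of 0.05 only in the second, and no other member passed in either. The study's title asks about proliferation, and chaperone genes are read here from the same comparison. It was fitted over all genes without a covariate (the uncorrected fit) and again with 1 surrogate variable as a term and each library's trends on GC content and gene length removed (the corrected fit). The second fit was devised after these data had been seen. Its SEs and p-values treat the estimated terms as known and can therefore be too small. In the uncorrected fit 0 of 67 members passed an adjusted p of 0.05 in edgeR's quasi-likelihood test, with 0.00636% of all tested genes called. At an unadjusted p under 0.05 there were 2, HSPB8 and DNAJB9, or 2.99% of the members against 1.11% of all genes. DESeq2 and limma-voom also called 0 members, each with 2 at an unadjusted p under 0.05. In the corrected fit 2 of 67 members rose, HSPB8 and CLU, against 0.35% of all genes called higher, and 0 fell, against 0.585% called lower and 0.935% called in either direction. With the surrogate variable alone the same 2 passed, where 4.54% of all genes were called. The corrected fit had 14 members at an unadjusted p under 0.05 (20.9%, against 12.9% of all genes). In sign, 36 of 67 members were above 0 uncorrected (53.7%, against 52.2% of all genes) and 31 corrected (46.3%, against 49.3%). HSPB8 and CLU were set apart from the rest with earlier results of these data known, so their place is a description. In bulk RNA, fewer cells of a kind and less RNA per cell cannot be told apart.

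HSPB8, a small heat shock protein that works with BAG3 to send misfolded clients to autophagy, lies on the plus strand of chromosome 12 from 119178642 to 119221131 in GRCh38. In order of replicate number it measured 11.8, 11.3 and 13.4 CPM in controls against 16.1, 15.9 and 16.2 CPM in the EGLN3 group. All 3 EGLN3 libraries were above all controls and close to each other. The counts behind these values were 203, 177 and 213 against 244, 268 and 259. Means were 12.2 ± 1.08 CPM for controls against 16.1 ± 0.148 CPM (SD, n = 3). At counts of this size an SD of 0.148 CPM is smaller than counting variation gives, so the closeness is not read as a result. On the log2 scale the difference was 0.40 (SE 0.13; edgeR, unadjusted p = 0.0202, adjusted p = 1) uncorrected and 0.45 (SE 0.10; edgeR, adjusted p = 0.0285) corrected, a rise of 37%. The corrected call was kept in 1 of the 6 fits that left out a library, the one without control replicate 3 (edgeR, adjusted p = 0.0157). It was lost without control replicate 1 or 2 (edgeR, adjusted p = 0.0763 and 0.0753) and without EGLN3 replicate 1, 2 or 3 (0.173, 0.0867 and 0.236), while its size ran from 0.40 to 0.53. The 2 genes whose annotated spans overlap HSPB8 had at most 9 counts in a library.

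CLU, the secreted chaperone clusterin, is a minus-strand gene of chromosome 8, between 27596917 and 27615031. Controls measured 20.9, 28.5 and 30.4 CPM, against 46.2, 31.4 and 27.9 CPM in EGLN3 replicates 1 to 3. The groups overlapped, since EGLN3 replicate 3 lay under controls 2 and 3, and EGLN3 replicate 1 stood highest. Means were 26.6 ± 5 and 35.2 ± 9.69 CPM (SD, n = 3). The uncorrected log2 difference came to 0.40 (SE 0.24; edgeR, unadjusted p = 0.143, adjusted p = 1), and to 0.17 without EGLN3 replicate 1. In the corrected fit it was 0.44 (SE 0.07; edgeR, adjusted p = 0.00142), a rise of 35.6%, and the call held in 6 of 6 fits that left out a library, with an adjusted p from 0.000636 to 0.03. With the trends removed and no surrogate variable, neither CLU nor HSPB8 passed (edgeR, adjusted p = 1 for both, at log2 fold changes of 0.43 and 0.47). After the correction the libraries of control lay at -0.26, -0.17 and -0.23 on the log2 scale around the gene's mean and those of EGLN3 at 0.20, 0.23 and 0.23. These are values left after the fitted surrogate part and the trends were taken out. Their small spread comes partly from that fit and does not measure agreement of replicates, since the measured groups overlapped.

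**Figure D2:**
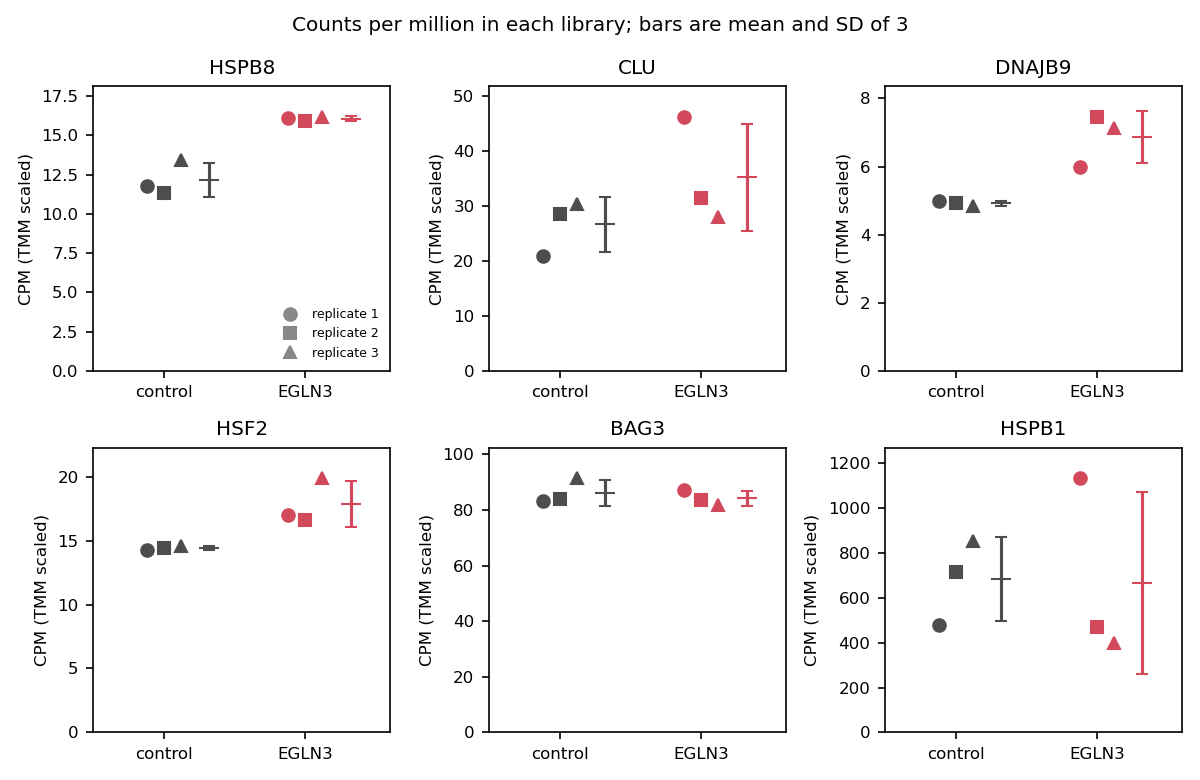
CPM (scaled by TMM) of 6 members in each library, with symbols for replicate number and bars for the mean and SD of 3. HSPB8, DNAJB9 and HSF2 have EGLN3 points above all control points, while CLU, BAG3 and HSPB1 overlap.

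Ratios between members within a library need no scaling between libraries. For every 100 counts of its partner BAG3, HSPB8 had 14.2, 13.5 and 14.6 in the controls against 18.5, 19 and 19.7 in the EGLN3 group. The groups did not overlap. Per 100 counts of HSPA8, HSPB8 had 0.536 ± 0.0649 in controls and 0.711 ± 0.0269 with EGLN3 (SD, n = 3), again without overlap. CLU had 25.2, 34 and 33.2 counts per 100 of BAG3 in controls and 53, 37.6 and 34.1 with EGLN3. Here too all EGLN3 libraries were above all controls, though EGLN3 replicate 3 only just. Per 100 counts of HSPA8 the groups of CLU overlapped, at 0.997, 1.17 and 1.32 against 1.97, 1.4 and 1.28.

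BAG3 itself, the co-chaperone that ties HSPB8 to HSP70, measured 83.1, 83.9 and 91.5 CPM in controls and 87.1, 83.5 and 81.9 CPM with EGLN3. Its log2 fold change was -0.03 (SE 0.12) uncorrected and 0.06 (SE 0.05) corrected. HSF1, the main transcription factor of the heat shock response, measured 166, 206 and 220 CPM in controls and 238, 167 and 150 CPM with EGLN3. The groups overlapped, with log2 fold changes of -0.09 (SE 0.21) and 0.06 (SE 0.04). HSF2, a related factor, measured 14.3, 14.4 and 14.6 CPM in controls and 17, 16.6 and 19.9 CPM with EGLN3. All EGLN3 libraries were above all controls. The difference was 0.30 in log2 (SE 0.13; edgeR, unadjusted p = 0.0585, adjusted p = 1) and 0.22 corrected (SE 0.10; edgeR, adjusted p = 0.315), so it did not pass.

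Groups did not overlap in CPM for 5 members (7.46%, against 6.26% of all genes), 4 higher with EGLN3 (5.97%, against 2.64% of all genes) and 1 lower (1.49%, against 3.62%). The 4 were HSPB8, HSF2, DNAJB9 and DNAJB4. DNAJB9 (ERdj4), an ER partner of BiP, measured 5, 4.92 and 4.83 CPM in controls and 6, 7.47 and 7.12 CPM with EGLN3, on 77 to 126 counts. Its log2 fold change of 0.48 (SE 0.16; edgeR, unadjusted p = 0.0218, adjusted p = 1) was 0.39 corrected (SE 0.15; edgeR, adjusted p = 0.233). Its span overlaps PNPLA8 and THAP5 on the other strand, and whether counting used strand is not stated in the labels. DNAJB4, a cytosolic partner of HSP70, measured 10.7, 11.6 and 11.1 CPM in controls against 11.7, 14.1 and 15.9, where EGLN3 replicate 1 was barely above the controls. Its log2 fold change was 0.32 (SE 0.16) uncorrected and 0.17 (SE 0.11) corrected. HSPA2, an HSP70 best known from the testis, was the member without overlap downward, at 42.3, 46.9 and 42.6 CPM against 41.8, 40.1 and 35.8. EGLN3 replicate 1 lay only just under the controls, and the log2 fold changes were -0.16 (SE 0.13) and -0.21 (SE 0.07; edgeR, adjusted p = 0.153).

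**Figure D3:**
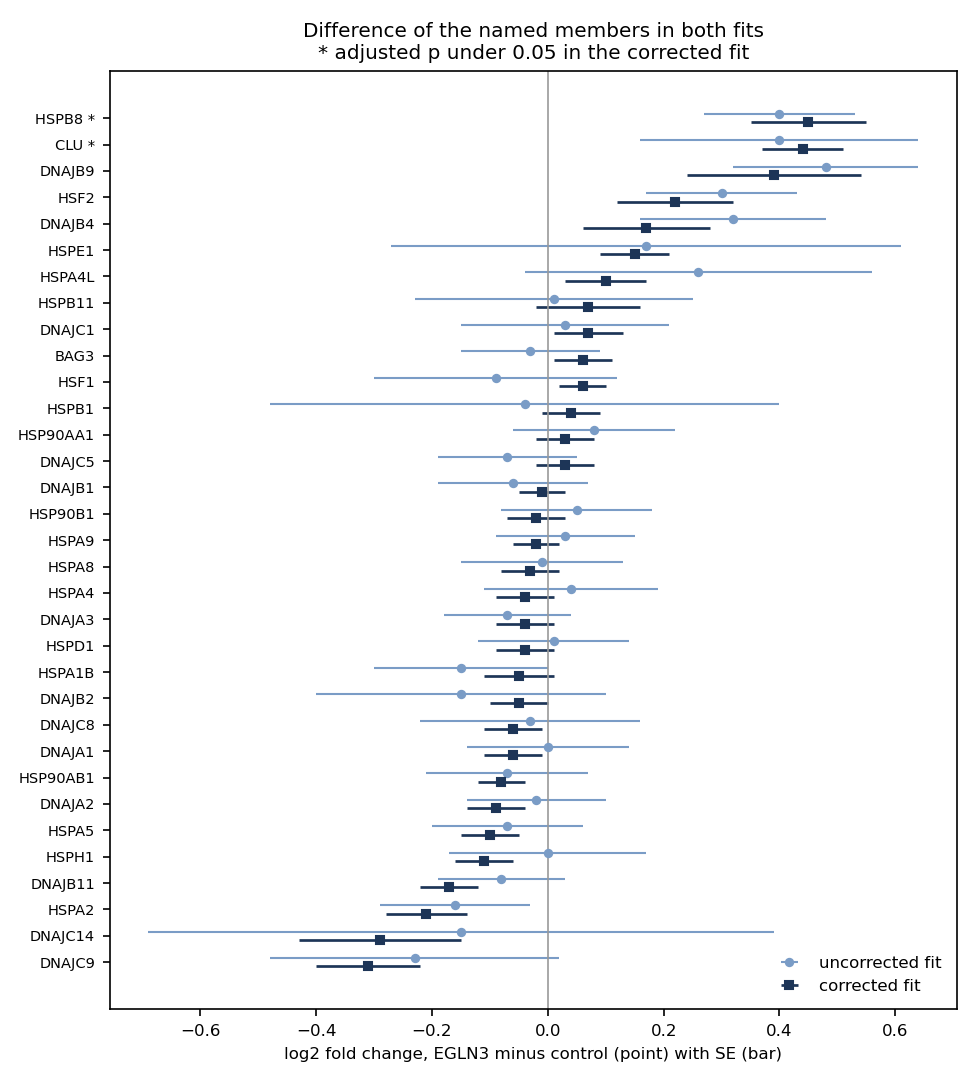
Log2 fold change (EGLN3 minus control, points) and SE (bars) of the 33 named members that were tested, from the uncorrected fit (circles) and the corrected fit (squares). HSPB8 and CLU are the 2 marked members with an adjusted p under 0.05 in the corrected fit, at 0.45 and 0.44.

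The high-level chaperones differed little between groups. HSP90AB1 measured 2788, 3050 and 2919 CPM in controls and 2892, 2725 and 2714 CPM with EGLN3, a log2 fold change of -0.07 (SE 0.14) uncorrected and -0.08 (SE 0.04) corrected. HSPA8 measured 2100, 2447 and 2293 CPM against 2344, 2249 and 2186, with -0.01 (SE 0.14) and -0.03 (SE 0.05). For both the groups overlapped. The 13 tested HSP70 members had a median log2 fold change of -0.01 uncorrected and -0.02 corrected, with 6 higher and 7 lower in the uncorrected fit. The 3 HSP90 members ran from -0.07 to 0.08 uncorrected and from -0.08 to 0.03 corrected. The 3 HSP110 members, nucleotide exchange factors of HSP70, ran from 0.00 to 0.26 uncorrected and from -0.11 to 0.10 corrected.

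DNAJ genes gave the widest range, mostly at low levels. The 4 DNAJA members lay between -0.07 and 0.01 on the log2 scale uncorrected. Of 9 tested DNAJB members 3 were higher, from DNAJB5 at -0.80 (SE 0.44), on 1.05 CPM in controls, to DNAJB9. Of 25 tested DNAJC members 15 were higher uncorrected and 11 corrected, with medians of 0.06 and -0.01. DNAJC9, a histone chaperone, was the lowest member with at least 10 CPM in the corrected fit. It measured 43.8, 46.5 and 33.6 CPM in controls and 24.3, 36 and 45 CPM with EGLN3. The groups overlapped, with a log2 fold change of -0.23 (SE 0.25) uncorrected and -0.31 (SE 0.09; edgeR, adjusted p = 0.138) corrected. Its annotated span overlaps MRPS16, FAM149B1 and DNAJC9-AS1, so its reads are uncertain. DNAJC14, an ER membrane protein that helps receptors reach the surface, measured 25.3, 20.6 and 10.9 CPM in controls and 5.94, 21.3 and 23.9 CPM with EGLN3. Its lowest library was EGLN3 replicate 1, the groups overlapped, and the log2 fold change was -0.15 (SE 0.54) uncorrected and -0.29 (SE 0.14; edgeR, adjusted p = 0.387) corrected.

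By compartment the medians stayed near 0. The 37 tested members of the cytosol and nucleus had a median log2 fold change of -0.01 in both fits. For the 13 of the ER it was 0.03 uncorrected and -0.04 corrected. HSPA5, the ER HSP70, measured 740, 813 and 737 CPM in controls and 751, 701 and 723 CPM with EGLN3, with overlapping groups, and had -0.07 (SE 0.13) uncorrected and -0.10 (SE 0.05) corrected. DNAJB11, an ER partner of HSPA5, was at -0.08 (SE 0.11) and -0.17 (SE 0.05; edgeR, adjusted p = 0.127), while DNAJB9 of the same compartment lay on the other side of 0. For the 8 of mitochondria the medians were 0.02 and -0.03. Over the 65 tested members other than HSPB8 and CLU the median was 0.00 uncorrected and -0.01 corrected, beside 0.01 and 0.00 over all genes tested. In the corrected fit 29 of these 65 were higher and 36 lower.

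Set against the rest, HSPB8 and CLU lay outside the range of the other 52 members with a mean of at least 10 CPM. Both were set apart with earlier results of these data known, so this is a description, and it holds only above that limit. Those 52 ran from -0.31 to 0.22 on the log2 scale in the corrected fit and from -0.23 to 0.32 in the uncorrected fit. The other 13 tested members lay below that level, and some of them differed by more than HSPB8 and CLU (both 0.40 uncorrected). In the uncorrected fit DNAJB9 at 0.48 (SE 0.16), DNAJC28 at 0.66 (SE 0.52) and DNAJB5 at -0.80 (SE 0.44) had larger differences. In the corrected fit DNAJB9 was at 0.39 (SE 0.15), DNAJC28 at 0.61 (SE 0.47) and DNAJB5 at -0.74 (SE 0.42), none of which passed.

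Some chaperones varied widely among libraries of the same group. In CPM the highest of a group's 3 libraries was at least 2 times the lowest, in 1 group or both, for 14 of the 67 tested members (20.9%, against 29.7% of all genes tested). With a mean of at least 10 CPM there were 6 of 54 (11.1%, against 17.6% of 9726 genes): HSPB1, HSPE1, HSPA4L, DNAJB14, DNAJC13 and DNAJC14. Over all 6 libraries the ratio ran from 1.06 for DNAJB6 to 4.26 for DNAJC14. HSPB1 measured 481, 717 and 854 CPM in controls against 1135, 471 and 397 CPM in the EGLN3 group. Its libraries followed the first component except that control replicate 1 and EGLN3 replicate 2 changed places, and the EGLN3 group held both the highest and the lowest value, with a log2 fold change of -0.04 (SE 0.44) uncorrected and 0.04 (SE 0.05) corrected. HSPE1, the lid of the mitochondrial chamber, measured 67.4, 96.2 and 141 CPM in controls and 186, 88.6 and 66.9 CPM with EGLN3. HSPD1, its partner on the opposite strand, whose annotated span contains that of HSPE1, measured 786, 873 and 829 CPM against 809, 824 and 869. HSPE1 thus had 8.57, 11 and 17 counts per 100 of HSPD1 in controls and 23, 10.7 and 7.69 with EGLN3, while HSPD1 itself varied 1.11-fold over the 6 libraries. HSPE1 also overlaps HSPE1-MOB4 on its own strand, so its reads and this ratio are uncertain.

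Some families leaned to one side of the component. HSPB1, HSPB3 and HSPB11 were highest in EGLN3 replicate 1, and the 3 HSP110 members in EGLN3 replicate 3. HSPH1, an HSP110 member, measured 274, 264 and 219 CPM in controls and 204, 266 and 287 CPM with EGLN3. DNAJC13, an endosomal protein, was at 103 CPM in EGLN3 replicate 3 and at 41.6 CPM in EGLN3 replicate 1, the ends of the component, with the other libraries between them. By the sign of the loading, 35 of the 67 tested members leaned toward EGLN3 replicate 1, as did 7861 of all 15726 genes. HSPB8 had a loading toward EGLN3 replicate 1 but did not follow this order. EGLN3 replicates 1 and 3, the ends of the component, were at 16.1 and 16.2 CPM. The controls, placed between those ends, were at 11.3 to 13.4 CPM.

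**Figure D4:**
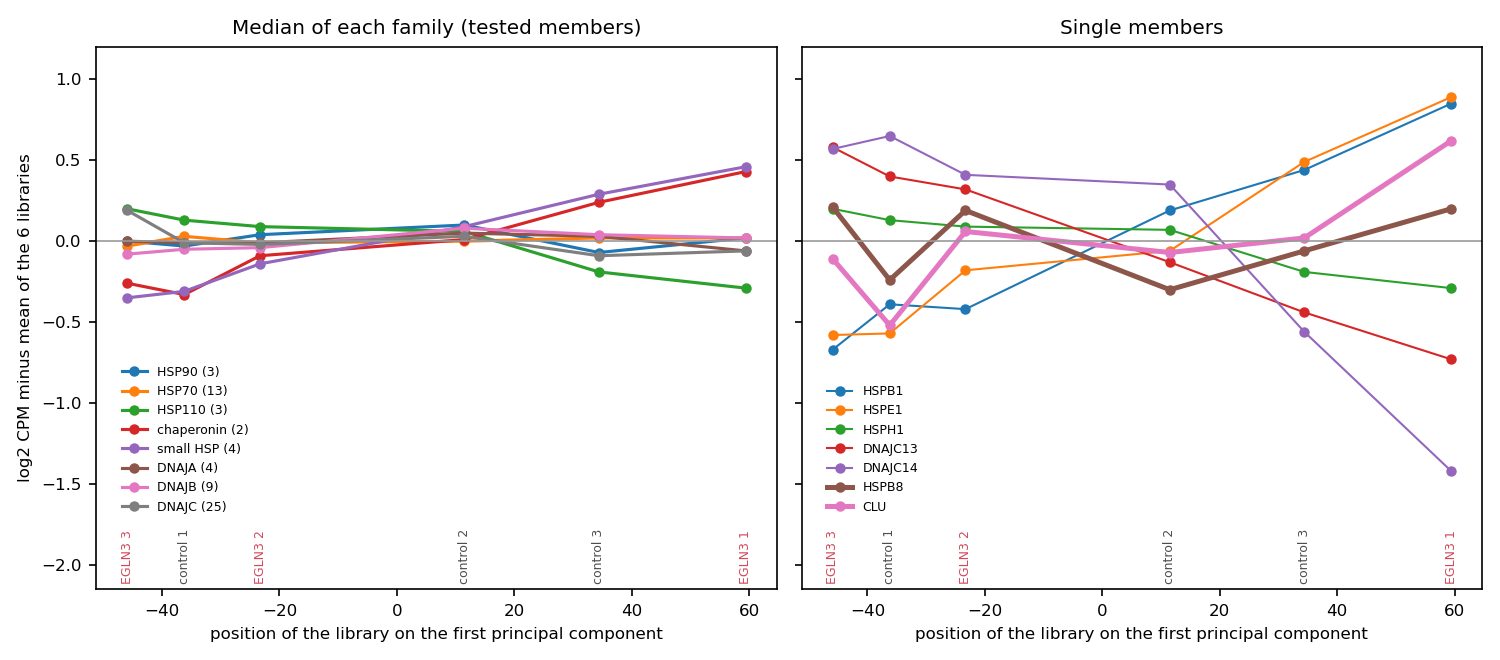
Log2 CPM minus the mean of the 6 libraries (vertical axis) against the position of each library on the first principal component, as the median of each family with its number of tested members (left) and for 7 single members (right). HSPB1 and HSPE1 are higher toward EGLN3 replicate 1 and DNAJC13 and DNAJC14 lower, while HSPB8 has its 3 EGLN3 libraries near 0.2 and its controls under 0.

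Lists of related genes were drawn up by function, with the results for HSPB8 and CLU known. Of 35 further chaperones and co-chaperones 0 were called in either fit, 18 were higher and 17 lower, with a median log2 fold change of 0.00 uncorrected and -0.02 corrected. They ran from -0.34 to 0.67 uncorrected and from -0.28 to 0.68 corrected. Among them, the chaperone TRAP1 was at -0.34 (SE 0.16) uncorrected and -0.28 (SE 0.07; edgeR, adjusted p = 0.121) corrected. CRYAB, on 3.18 CPM in controls, was at 0.47 (SE 0.32) and 0.52 (SE 0.18; edgeR, adjusted p = 0.199). Of 14 subunits of the cytosolic chaperonin TRiC and of prefoldin, which fold actin and tubulin, 0 were called, with a median of -0.05 uncorrected and -0.06 corrected, and 13 of 14 had a loading toward EGLN3 replicate 1. Of 27 known HSF1 targets, which include HSPB8 and CLU, 2 rose and 1 fell in the corrected fit (0.35% of all genes were called higher and 0.585% lower), and the median was -0.02 uncorrected and -0.01 corrected. The 2 that rose are HSPB8 and CLU again, so they add no evidence. The one that fell was the ubiquitin gene UBB, with 110 CPM against 88.1 CPM in the EGLN3 group (uncorrected log2 fold change -0.32, SE 0.14, adjusted p = 1; corrected -0.30, SE 0.06; edgeR, adjusted p = 0.0155). Of 11 genes of chaperone-assisted autophagy, which include HSPB8, 2 rose in the corrected fit, against 0.35% of all genes. HSPB8 is counted again here and adds no evidence, and its call was lost in 5 of the 6 fits without a library. The other was the autophagosome protein MAP1LC3B, which went from 51.8 to 62.8 CPM with overlapping groups (uncorrected log2 fold change 0.28, SE 0.18, adjusted p = 1; corrected 0.31, SE 0.07; edgeR, adjusted p = 0.0174).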

How the data were processed

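The authors deposited raw read counts by gene, and the deposited FPKM values equal counts divided by gene length and by a DESeq2-type size factor, found from the values. Per the submitters' processing notes, HISAT2 2.0.5, featureCounts 1.5.0-p3, DESeq2 1.20.0 and hg38 were used, with no role given. Gene lengths of the deposited table are in bases. Coordinates are those of the deposited table. After filterByExpr and TMM scaling, the counts went into edgeR 4.0.16 (quasi-likelihood, robust; R 4.3.3), with Benjamini-Hochberg adjustment over all 15726 genes and a threshold of 0.05. SE is the log2 fold change divided by the square root of F. The corrected fit added 1 surrogate variable (svaseq, sva 3.50.0) and removed spline trends (5 degrees of freedom) of each library on GC content (longest GENCODE transcript) and gene length, for 15719 genes. Between libraries of a group, chi-square per degree of freedom was 8.07 to 104, so each counted as 1 replicate. The steps were also run on simulated data in which the first component was the only library effect. A surrogate variable can take up such an effect, so no support for the corrected calls is drawn from that run. Named genes were HSPB8, CLU, HSF1, HSF2, BAG3, the 3 members highest in FPKM of each family, members called in the corrected fit or at an unadjusted p under 0.05, and the 5 largest rises and falls at 1 CPM or more; other members were named after their values were seen. Members and lists were chosen with earlier results of these data known. Alternatives were DESeq2 1.42.0, limma-voom (limma 3.58.1), other scalings and filters, log2 FPKM, a replicate block, parts of the correction, and leaving out each library. Protein motifs were not searched, since no protein sequences were used here. FPKM values were also rescaled to the longest annotated transcript, a choice made after seeing the data.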

Additional observations from a re-analysis of the deposited data

How the results depend on the processing

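In the uncorrected fit no member was called under any alternative run (DESeq2, limma-voom, RLE and upper-quartile scaling, 2 filters, protein-coding genes alone, log2 FPKM in 3 forms, the replicate block and 6 fits without a library), and HSPB8 and CLU kept their direction. Without a library HSPB8 ran from 0.37 to 0.47 and CLU from 0.17 to 0.54 on the log2 scale, and the median of the tested members from -0.03 to 0.056. In the corrected fit, HSPB8 and CLU were also called with limma-voom, with the surrogate variable alone, with the GC trend alone beside it, and under both other filters. DESeq2 with the same correction called 0 members and gave no adjusted p for either (log2 fold changes of 0.45 and 0.44, unadjusted p = 0.00116 and 5.44e-06). Its adjusted p was missing for 36 of 67 members and for 11580 of 15719 genes, so it neither repeats nor contradicts the 2 calls. With the trends and no surrogate variable 0 members were called, with HSPB8 at 0.47 and CLU at 0.43. Without a library the corrected fit called 1 to 3 members, with HSPB8 from 0.40 to 0.53 and CLU from 0.41 to 0.48. DNAJC9 was called, lower, without a filter and without control replicate 1, and DNAJC14 without control replicate 1. When a library was left out, 10 to 22 of 67 members changed sign in the uncorrected fit and 4 to 13 in the corrected fit. Replicate numbers did not pair the libraries: deviations of libraries with the same number correlated at -0.793, -0.176 and -0.674, and 0 of 6 correlated best with their own number. With the replicate block 0 members were called, HSPB8 was at 0.40 and CLU at 0.38, and with the block and the trends 0 were called, HSPB8 at 0.46 and CLU at 0.40.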
